A study of Rattus norvegicus with 8 samples.

Results

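Genes of the endothelial barrier and of vessel growth were examined in rat spinal cord after injury. The list named 10 genes, namely Cldn5, Ocln, Tjp1, Cdh5, Pecam1, Mfsd2a, Slc2a1, Plvap, Flt1 and Kdr, and each was taken from the probe sets whose platform annotation gave exactly 1 symbol, equal to the gene's. In this way 8 of the 10 were found among 18166 genes, each through 1 probe set, and Pecam1 and Kdr were not analysed here. Messenger RNA was measured on 8 Affymetrix Rat Gene 2.0 ST arrays of thoracic cord. In 4 of them the cord had been injured (SCI), and the other 4 came from sham-laminectomy animals (sham). The rats were Long Evans males, aged approximately 175 days and weighing 400 g. They ate chow (17% fat) until 4 weeks after surgery and a high-fat diet (40% fat) from then on, which both groups shared. The protocol speaks of 10 rats and of 8 weeks in total, where the start of the 8 weeks is not clear, and the labels differ on the cord segment. The labels do not say that each array is a separate animal, so the p-values measure the spread between these arrays, which may in part be technical.

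Endothelial cells of the spinal cord form the blood-spinal cord barrier. Their tight junctions are built from claudin-5 (Cldn5) and occludin (Ocln), which the scaffold ZO-1 (Tjp1) anchors to the actin cytoskeleton, while VE-cadherin (Cdh5) holds neighbouring cells together at adherens junctions. The barrier also depends on little vesicle traffic across the cell, which the lipid transporter Mfsd2a restrains, and on dedicated carriers such as the glucose transporter GLUT1 (Slc2a1). Plvap forms the diaphragms of fenestrae and caveolae and is scarce in barrier vessels, and Flt1 and Kdr are the VEGF receptors 1 and 2.

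Of the 8 measured genes, Cdh5 rose 1.60-fold and Mfsd2a fell to 67.6% of its sham level. The other 6 did not pass the test. Flt1 came nearest, at a log2 difference of -0.40 (SE 0.13, adjusted p = 0.0772), and Cldn5, Ocln, Tjp1, Slc2a1 and Plvap differed by -0.20 to 0.20. Values are RMA signals on the log2 scale, where a difference of 1 is a doubling, and a gene was called changed at a limma p under 0.05 after Benjamini-Hochberg adjustment over all 18166 genes. Of all genes, 7.1% were called higher and 7.06% lower in SCI, together 14.2%. The members' counts of 1 higher and 1 lower of 8 stood near that background. The groups did not overlap in 2 of the 8, Cdh5 and Mfsd2a, against 20.3% of all genes. The median difference was -0.11 over the 8 genes and -0.01 over all genes, and 0 of the 8 changed by as much as 2-fold. RNA came from whole tissue, so fewer cells of a type and less RNA per cell cannot be told apart.

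**Figure D1:**
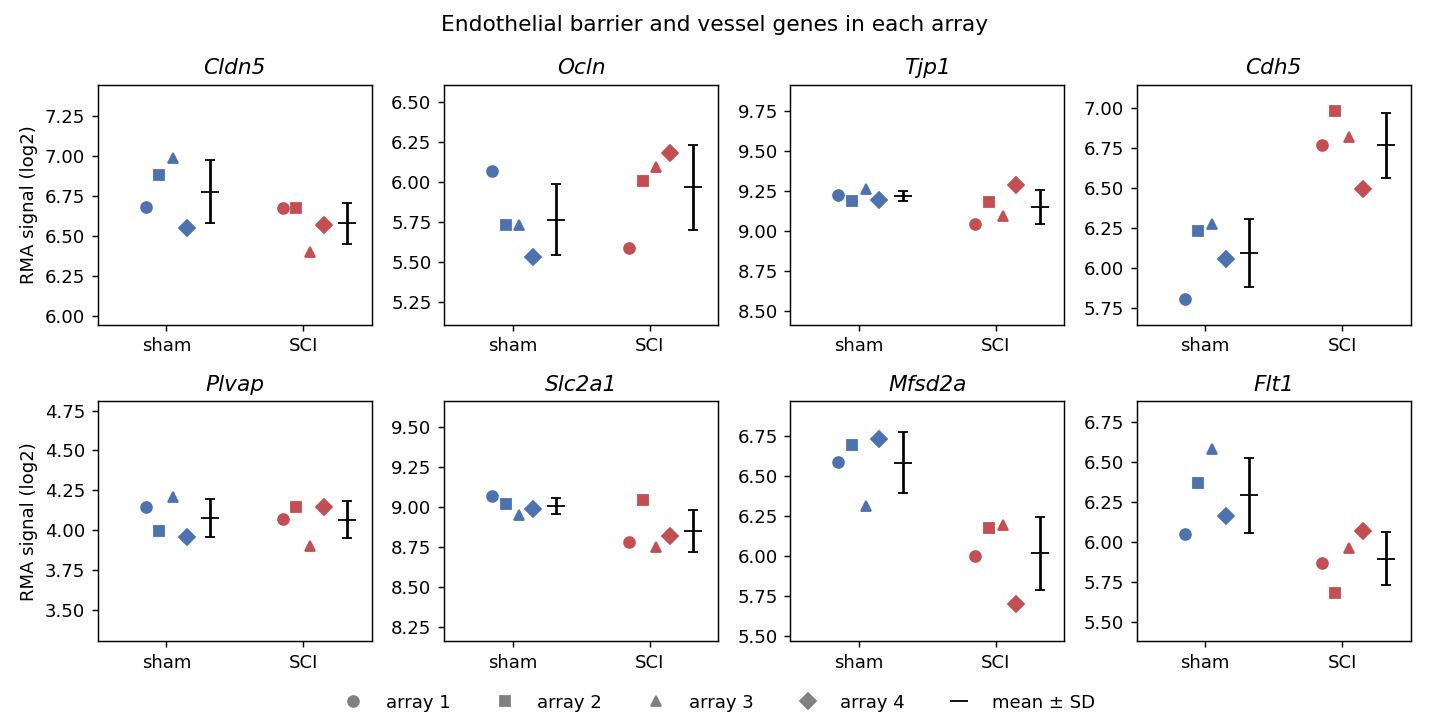
RMA signal (log2, vertical axis, each panel spanning the same height) of the 8 genes in the 4 sham (blue) and 4 SCI (red) arrays; each symbol is 1 array and the bar is the mean ± SD. The 4 SCI arrays of Cdh5 lie between 6.49 and 6.98, all above the sham arrays, those of Mfsd2a lie between 5.70 and 6.19, all below them, and in the other 6 panels the groups overlap.

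The RefSeq table of promoter windows of the GRCr8 assembly held 7 of the 10 genes, those of Cldn5, Ocln, Tjp1, Slc2a1, Plvap, Flt1 and Kdr. Each window ran from 250 bases before to 50 bases after the gene's start, and both strands were searched for short cores of factors that act on vessel genes. The ETS core AGGAAG was found in 2 of the 7 windows, those of Flt1 and Plvap, against 34.5% of all 33469 windows. The hypoxia element core ACGTG was found in the window of Slc2a1, against 19.3% of all windows. The TCF and LEF core CTTTGA was found in that of Tjp1 (16.1% of all windows), and the SOX core ACAATG in none of the 7 (13.2%). The 250 bases before the start of Flt1, Plvap and Slc2a1 are shown because Flt1 and Plvap are the members with an ETS core, and because Slc2a1 is a textbook target of hypoxia signalling. They lie at chr12:12333180-12333429 (Flt1, plus strand), chr16:18231280-18231529 (Plvap, minus strand) and chr5:138002272-138002521 (Slc2a1, plus strand) of GRCr8 and are written 5′ to 3′ on the gene's strand, with the ETS core in capitals for Flt1 and Plvap and the hypoxia core in capitals for Slc2a1.
Flt1: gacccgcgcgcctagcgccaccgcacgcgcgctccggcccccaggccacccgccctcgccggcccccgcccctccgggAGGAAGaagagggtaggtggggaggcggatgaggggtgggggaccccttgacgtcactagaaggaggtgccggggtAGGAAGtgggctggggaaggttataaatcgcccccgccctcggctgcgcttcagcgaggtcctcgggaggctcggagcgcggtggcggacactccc
Plvap: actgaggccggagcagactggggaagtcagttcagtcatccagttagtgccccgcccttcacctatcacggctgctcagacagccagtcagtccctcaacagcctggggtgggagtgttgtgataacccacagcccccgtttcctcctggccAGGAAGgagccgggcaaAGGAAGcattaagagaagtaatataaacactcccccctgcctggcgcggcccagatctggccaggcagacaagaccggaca
Slc2a1: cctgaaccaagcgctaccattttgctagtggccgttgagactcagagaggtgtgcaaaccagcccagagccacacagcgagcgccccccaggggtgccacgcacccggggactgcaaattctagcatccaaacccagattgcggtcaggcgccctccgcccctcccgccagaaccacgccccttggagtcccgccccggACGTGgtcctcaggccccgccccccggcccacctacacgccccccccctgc
In Flt1 the ETS cores begin 172 and 96 bases before the start, in Plvap 98 and 81 bases before it, and in Slc2a1 the hypoxia core begins 51 bases before it. A match of letters is a description of the sequence and no measurement of binding.

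Among the tight junction genes, no member passed the test. Cldn5, the claudin that seals barrier vessels (probe set 17671142), read 6.68, 6.88, 6.99 and 6.55 in the sham arrays and 6.67, 6.67, 6.40 and 6.57 in the SCI arrays. Sham 2 and sham 3 were clearly above every SCI array and sham 1 barely so, and sham 4 lay inside the SCI range. The means were 6.78 ± 0.20 and 6.58 ± 0.13 (SD, n = 4), a difference of -0.20 with a 95% interval from -0.46 to 0.07 (limma, adjusted p = 0.340). The interval of Cldn5 thus holds no difference and a loss to 0.726 of the sham level, and leaves out any loss beyond that. Ocln, the occludin gene (probe set 17744817), read 6.07, 5.73, 5.73 and 5.53 in sham and 5.59, 6.01, 6.10 and 6.18 in SCI. In each group 1 array ran against the other 3, sham 1 at the top of its group and SCI 1 at the bottom of its own. The difference for Ocln was 0.20 (interval -0.13 to 0.54, adjusted p = 0.457). Tjp1, the scaffold that joins both proteins to actin (probe set 17633748), read 9.22, 9.19, 9.26 and 9.20 in sham and 9.04, 9.18, 9.09 and 9.29 in SCI. Its sham arrays lay within 0.07 of each other and its SCI arrays within 0.25, on both sides of the sham values. The difference for Tjp1 was -0.07, with the narrowest interval of the 8 genes, from -0.27 to 0.13 (adjusted p = 0.708). Tjp1 is also made by many other cells of the cord, so its signal belongs to more than vessels.

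Cdh5, the adherens junction cadherin of endothelial cells (probe set 17731360), was higher in SCI. It read 5.80, 6.23, 6.27 and 6.06 in the sham arrays and 6.77, 6.98, 6.82 and 6.49 in the SCI arrays. All 4 SCI arrays were above all 4 sham arrays, and SCI 4 and sham 3 were the nearest pair. The means were 6.09 ± 0.21 in sham and 6.77 ± 0.20 in SCI (SD, n = 4). The rise was 0.68 on the log2 scale (SE 0.14, interval 0.37 to 0.98, adjusted p = 0.0081), or 1.30-fold to 1.97-fold. Cdh5 stayed called when any 1 array was left out, with adjusted p from 0.0052 to 0.0281. In those fits 9.37%, 10.1%, 10.7%, 11.3%, 11.4% or 14% of all genes were called. SCI 3, sham 1 and sham 2 had positive scores on the second principal component and the other 5 arrays negative ones. Sham 3 and sham 4 lay about as far out on the negative side. Without SCI 3, sham 1 and sham 2 the rise of Cdh5 was 0.58 with an adjusted p of 0.10. That fit of 5 arrays called 3.1% of all genes higher and 1.56% lower.

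Mfsd2a, the lipid transporter that restrains vesicle traffic (probe set 17810274), was lower in SCI. It read 6.59, 6.69, 6.31 and 6.73 in sham and 6.00, 6.17, 6.19 and 5.70 in SCI. The groups did not overlap, with sham 3 the lowest sham array and SCI 4 the lowest of all. The means were 6.58 ± 0.19 and 6.01 ± 0.23 (SD, n = 4), a change of -0.57 (SE 0.14, interval -0.87 to -0.26, adjusted p = 0.0198). The call of Mfsd2a was lost without sham 2 (-0.53, adjusted p = 0.0546), without sham 4 (-0.52, adjusted p = 0.0598) and without SCI 3, sham 1 and sham 2 together (-0.56, adjusted p = 0.137). The number in the array titles was 4, 6, 7 and 8 in SCI and 5, 9, 10 and 11 in sham, so it partly followed the groups. With it as a covariate the adjusted p of Mfsd2a was 0.0634 (2.99% of all genes lower). With all probe sets of the array in the fit, the adjusted p was 0.0657 (3.52% lower). The direction of Mfsd2a was the same in all 19 alternative settings, with differences from -0.70 to -0.46.

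Slc2a1, the glucose carrier that barrier endothelium shares with astrocytes (probe set 17801572), read 9.07, 9.02, 8.95 and 8.99 in sham. In the SCI arrays it read 8.78, 9.05, 8.75 and 8.82. SCI 1, SCI 3 and SCI 4 were below every sham array, while SCI 2 lay inside the sham range. The difference for Slc2a1 was -0.16 (interval -0.37 to 0.06, adjusted p = 0.350).

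Plvap, the diaphragm protein of permeable vessels (probe set 17710743), read 4.15, 4.00, 4.21 and 3.96 in sham and 4.07, 4.15, 3.90 and 4.15 in SCI. The groups covered nearly the same range, and the difference was -0.01 (interval -0.24 to 0.21, adjusted p = 0.963), which changed sign in 4 of the 19 settings. Plvap was the only one of the 8 whose mean lay below the median signal of all genes, 4.74. RMA compresses differences of dim probe sets, and no detection call was available, so neither presence nor absence of Plvap can be stated.

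Flt1, VEGF receptor 1, which also occurs as a soluble trap for VEGF and on monocytes (probe set 17671570), read 6.05, 6.37, 6.58 and 6.16 in sham and 5.87, 5.68, 5.96 and 6.07 in SCI. The groups overlapped at a single point, where SCI 4 stood just above sham 1. The means were 6.29 ± 0.23 and 5.89 ± 0.17 (SD, n = 4). The 95% interval of Flt1, from -0.69 to -0.10, did not include 0. Its unadjusted p from limma's fit across all genes, 0.0134, missed the threshold after adjustment. It passed the adjusted threshold with genes of a mean below 4 left out (adjusted p = 0.0361) and with a trended and robust variance (adjusted p = 0.0337), settings in which 15.7% and 9.64% of the genes tested were called lower. With the title number as covariate its difference was -0.27 (adjusted p = 0.331).

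**Figure D2:**
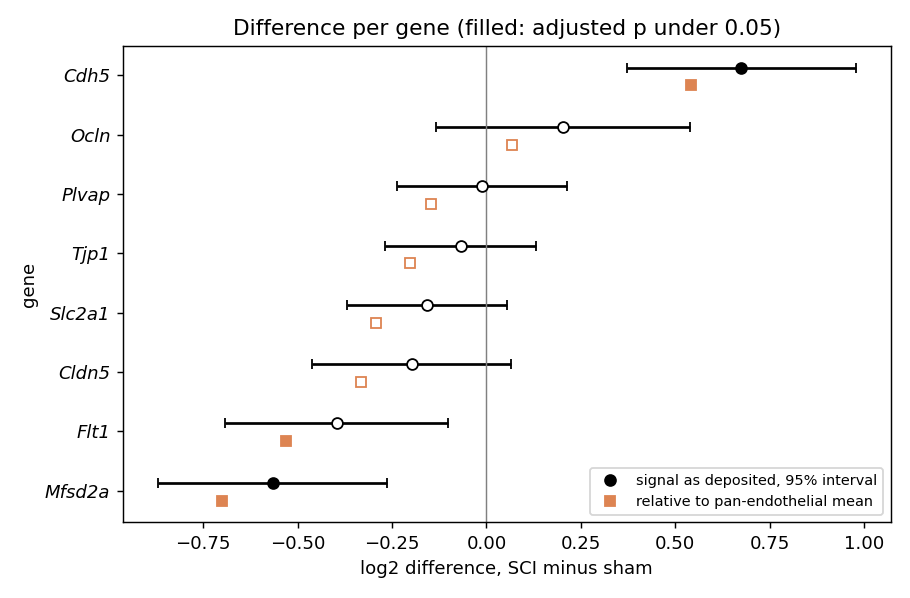
Log2 difference, SCI minus sham (horizontal axis), of the 8 genes. Circles, with 95% intervals, show the signal as deposited. Squares show it relative to the mean of the 23 genes of the pan-endothelial list in the same array. Filled symbols have an adjusted p under 0.05. Cdh5 at 0.68 and Mfsd2a at -0.57 are filled in both scales, and Flt1 is filled only relative to the pan-endothelial mean, at -0.53.

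The members were also set against 23 measured genes of a pan-endothelial list that holds none of them. Of these 23, 2 were called higher and 0 lower, beside 7.1% and 7.06% of all genes, with a median difference of 0.03. The other 21 lay between -0.23 and 0.43 without passing. Among the latter were Tie1, the von Willebrand factor gene Vwf, Egfl7 and the transcription factor Erg, at -0.23 to 0.22. The 2 called were the sialomucin Cd34 (1.98, SE 0.20, adjusted p = 1.5e-04), which fibroblasts and precursor cells carry as well, and the adhesion molecule Icam2 (0.60, SE 0.16, adjusted p = 0.0304). The call of Icam2 was lost when SCI 1, SCI 2, SCI 4, sham 2 or sham 4 was left out, with adjusted p between 0.0668 and 0.0888. Icam2 was also not called with the title number as covariate (adjusted p = 0.160) or with all probe sets in the fit (0.0919). Sox18, the third by p-value, had 0.42 (adjusted p = 0.104, and 0.0190 without sham 2). Icam2, Sox18, Egfl7, Sox17, Sox7, Robo4, Mmrn2, Cd93 and Tal1 were above the median of all genes on no array. RMA compresses differences of such dim probe sets, so small differences there do not establish equal levels, and the list's mean includes them. The list's mean signal was 4.73 to 4.97 in the sham arrays and 4.92 to 5.04 in the SCI arrays, ranges that overlap because sham 3 lay above SCI 4.

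Whether the 23 genes of the list are made by endothelium alone was not tested, so their mean is no measure of endothelial content. With that mean subtracted from every gene in each array, the median difference of all genes moved from -0.01 to -0.15. Of all genes 4.4% were then called higher and 12.2% lower, together 16.6%, so that 26.6% of the calls were higher against 50.2% without it. On this scale Cdh5 differed by 0.54 (SE 0.13, adjusted p = 0.0142), Mfsd2a by -0.70 (SE 0.15, adjusted p = 0.0072) and Flt1 by -0.53 (SE 0.14, adjusted p = 0.0189). The other 5 members did not pass, with Cldn5 at -0.33 (adjusted p = 0.0761), Slc2a1 at -0.29 (0.115), Tjp1 at -0.20 (0.268), Plvap at -0.15 (0.431) and Ocln at 0.07 (0.801). Without SCI 2, Cdh5 (adjusted p = 0.0516) and Flt1 (0.0690) were not called on this scale, while Mfsd2a was called without any 1 array (0.0030 to 0.0290). Cd34 carried most of the shift of the reference, which was 0.13 with it and 0.05 without it. Against the other 22 genes, where 5.28% of all genes were called higher and 6.7% lower, Cdh5 (0.62, adjusted p = 0.0087) and Mfsd2a (-0.62, adjusted p = 0.0174) passed and Flt1 (-0.45, adjusted p = 0.0541) did not.

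The genes whose 8 values, each centred on the gene's mean, lay nearest to those of the called members were named as a description. Nearest to Cdh5 were the laminin receptor chain Itga6, the GABA transporter Slc6a13 of meningeal and perivascular fibroblasts, and the purine salvage enzyme Aprt, with root mean square differences of 0.07, 0.08 and 0.09 (log2) over the 8 arrays. Their own changes were 0.62, 0.75 and 0.70. Nearest to Mfsd2a were Ccdc171, Mchr1 and B3galt2 (0.09, 0.10 and 0.10), whose own differences were -0.51, -0.46 and -0.58. Of these 6 only Mchr1 was not called (adjusted p = 0.0503), and it passed in 8 of the 19 settings. Ccdc171 lost its call in 7, among them without SCI 2, sham 1, sham 2 or sham 4 (0.0517 to 0.0768). The measure of likeness includes the difference between groups. Calls among genes chosen by it therefore follow from the choice and are no result, though only 14.2% of all genes were called.

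Most junction partners of the members did not pass the test. Of 18 other tight and adherens junction genes, 14 were not called, 3 were higher and 1 lower (median -0.00), beside 7.1% of all genes higher and 7.06% lower. Cldn1, a claudin of epithelia and leptomeninges, rose by 0.95 (SE 0.16, adjusted p = 0.0035), and Jam3, a junctional adhesion molecule also made by oligodendrocytes, changed by -0.59 (SE 0.11, adjusted p = 0.0049). Beta-catenin, Ctnnb1, which binds the tail of VE-cadherin, rose by 0.45 (SE 0.10, adjusted p = 0.0101). Its partner alpha-catenin, Ctnna1, chosen after its values were seen, rose by 0.43 (adjusted p = 0.0260), a call lost without any 1 of 5 arrays (SCI 1, SCI 2, sham 1, sham 2 or sham 4). Relative to the pan-endothelial mean neither catenin passed (0.0930 and 0.114). With Cd34 left out of that mean, Ctnnb1 passed and Ctnna1 did not (0.0651). With the title number as covariate Ctnnb1 was not called (0.0674).

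Of 17 other barrier carriers and pumps, 2 were higher and 1 lower (median -0.06), beside 7.1% and 7.06% of all genes. The amino acid carrier chain Slc3a2 rose by 0.57 (SE 0.09, adjusted p = 0.0025) and the monocarboxylate carrier Slc16a1 by 0.43 (SE 0.10, adjusted p = 0.0176). Slc16a1 did not pass relative to the pan-endothelial mean (0.30, adjusted p = 0.139, and 0.0807 without Cd34), with the title number as covariate (0.0516) or with all probe sets in the fit (0.0557). The transferrin receptor Tfrc changed by -0.58 (SE 0.15, adjusted p = 0.0262), and its call was lost when SCI 1, SCI 2, sham 3 or sham 4 was left out (0.0630 to 0.0783). Tfrc was also not called with the title number as covariate (-0.37, adjusted p = 0.156) or with all probe sets in the fit (0.0824). The 14 not called, among them the efflux pumps Abcb1a and Abcg2, lay between -0.29 and 0.38. RNA came from whole cord, so these carrier signals cannot be assigned to vessels.

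Around the VEGF receptors, both neuropilin co-receptors rose, and of the ligands of Flt1, Pgf rose, Vegfa fell and Vegfb did not pass. Of 18 genes of VEGF, angiopoietin and related signalling, 5 were higher and 1 lower (median 0.12), beside 7.1% and 7.06% of all genes. Nrp2 and Nrp1, co-receptors for VEGF and semaphorins that myeloid cells and neurons make too, rose by 0.69 (SE 0.09, adjusted p = 5.3e-04) and 0.71 (SE 0.12, adjusted p = 0.0028). Pgf, the placental growth factor, which binds Flt1 and not Kdr, rose by 0.66 (SE 0.10, adjusted p = 0.0022). Its sham arrays read 5.28, 5.50, 5.29 and 5.49 and its SCI arrays 6.17, 6.14, 5.91 and 5.96, with no overlap. Vegfa, the main ligand of Flt1 and Kdr, was chosen after its values were seen. It read 6.70, 6.73, 7.73 and 6.55 in sham and 6.03, 6.28, 5.79 and 5.96 in SCI, so the groups did not overlap and sham 3 stood far above the rest. Its change was -0.92 (SE 0.23, adjusted p = 0.0235), and the call was lost without SCI 1, SCI 3 or SCI 4 (0.0512 to 0.0635). Vegfa was also not called with the title number as covariate (adjusted p = 0.104) or with all probe sets in the fit (0.0804). Aplnr (0.43, adjusted p = 0.0161, and 0.0522 and 0.0506 without SCI 2 or sham 4) and Notch1 (0.37, adjusted p = 0.0494, lost without any 1 array, 0.0589 to 0.116), chosen after their values were seen, made up the count. Relative to the pan-endothelial mean Aplnr (adjusted p = 0.0964) and Notch1 (0.282) did not pass. The other VEGF ligands Vegfb, Vegfc and Vegfd lay between -0.10 and 0.14 and did not pass, and nor did the angiopoietins and their receptors Tek and Tie1 (-0.16 to 0.36).

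Wnt signals set up the barrier during development and keep claudin-5 on and Plvap off. Of 15 genes of that programme, 3 were higher and 0 lower (median 0.04), beside 7.1% and 7.06% of all genes. The 3 were Ctnnb1, Tnfrsf19 (0.40, adjusted p = 0.0398) and the ligand cofactor Reck (0.52, adjusted p = 0.0403). Tnfrsf19 kept its call without SCI 1 or SCI 4 alone, and Reck without SCI 4 or sham 3 alone; without any other 1 array their adjusted p was 0.0570 to 0.112. The remaining 12, with the receptor Fzd4 and the target Axin2 among them, lay between -0.24 and 0.28. In whole-cord RNA the signals of these Wnt genes cannot be assigned to vessels either.

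Of 13 caveola and leukocyte adhesion genes, 5 were higher and 0 lower (median 0.38), beside 7.1% and 7.06% of all genes. The hyaluronan receptor Cd44 rose by 1.19 (SE 0.12, adjusted p = 1.2e-04), Icam1 by 1.14 (SE 0.16, adjusted p = 0.0010) and Vcam1 by 0.65 (SE 0.11, adjusted p = 0.0037), all 3 of them genes that myeloid cells or glia express as well as activated endothelium. The caveola genes Cavin1 (0.51, adjusted p = 0.0183, and 0.0580 and 0.0529 without SCI 2 or sham 3) and Ehd2 (0.52, adjusted p = 0.0337, lost without any 1 array but SCI 4 and sham 3), chosen after their values were seen, also rose. Relative to the pan-endothelial mean Cavin1 (adjusted p = 0.101) and Ehd2 (0.0599) did not pass. The caveolins and other cavins differed by -0.19 to 0.46 and did not pass, and the endothelial selectin Sele, at a dim 2.30 in sham, had 0.01 (adjusted p = 0.977).

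**Figure D3:**
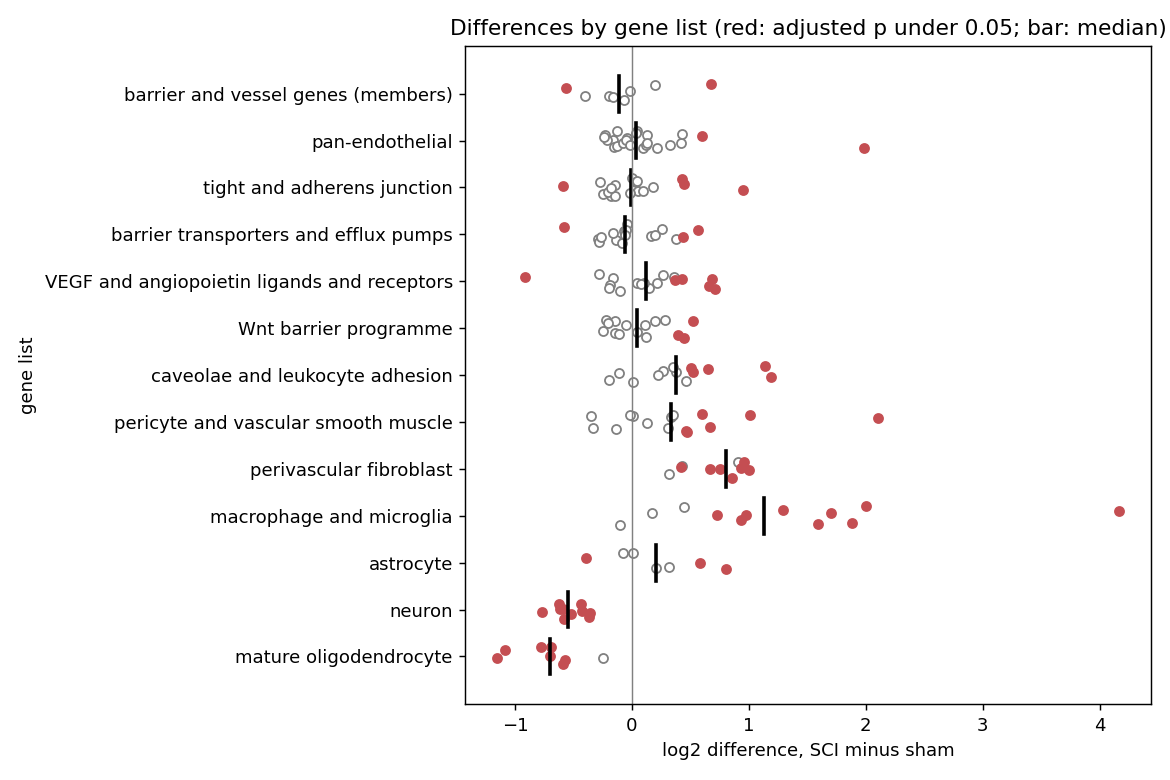
Log2 difference, SCI minus sham (horizontal axis), of each measured gene of 13 lists (rows); red points have an adjusted p under 0.05 and the black bar is the list's median. The barrier and vessel genes (median -0.11) and the pan-endothelial genes (0.03) centre near 0, the macrophage and microglia genes lie to the right (median 1.13) and the neuron genes to the left (-0.55).

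Markers of other cell types also differed between these SCI and sham arrays, in which 7.1% of all genes were called higher and 7.06% lower. Of 12 macrophage and microglia genes 9 were higher, led by Cd68 (4.17), Tyrobp (1.89) and Fcer1g (2.00), and the list's mean signal was 5.58 to 5.86 in sham and 6.84 to 7.26 in SCI. Of 10 perivascular fibroblast genes 7 were higher, led by Col1a2 (1.00), Fbln1 (0.96) and Col1a1 (0.93), with list means of 6.60 to 7.00 and 7.28 to 7.85. Of 15 genes listed for pericytes and smooth muscle 6 were higher, led by Anpep (2.10), Vtn (1.01) and Zic1 (0.67), with list means of 5.11 to 5.32 and 5.51 to 5.70. The 6 include Pdgfb (0.47, adjusted p = 0.0327), chosen after its values were seen, a ligand made by endothelial cells. The other 9 did not pass, among them the pericyte and muscle markers Pdgfrb (0.34), Cspg4 (0.36), Kcnj8 (0.31), Des (-0.01), Rgs5 (-0.13), Tagln (-0.34) and Abcc9 (-0.35). The astrocyte list had 2 higher and 1 lower of 7 (Gfap 0.81, Gja1 0.59 and Slc1a2 -0.39, the last lost without any 1 array but SCI 4 and sham 1), all 10 neuron genes were lower (Ina -0.77, Nefm -0.62, Syp -0.58) and so were 7 of 8 mature oligodendrocyte genes (Fa2h -1.09, Mog -0.78, Mbp -0.70). Over all genes SCI 4 was the injured array nearest to sham. On the first principal component it scored 14.2, against 22.7 to 30.2 in the other SCI arrays. For Cdh5, Cd68 and Col1a1, which rose, SCI 4 likewise had the lowest value of the injured group, so this is not particular to these genes. For Mfsd2a, which fell, SCI 4 was also the lowest, but there the farthest from sham. Icam1, which rose, was highest in SCI 4 (7.02). Without SCI 3, sham 1 and sham 2 together, Jam3, Ctnnb1, Nrp1, Slc16a1, Vcam1, Zic1 and Col1a1 were among the genes not called (adjusted p of 0.0540 to 0.161). The part of these cell types in the differences of the members was not tested.

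**Figure D4:**
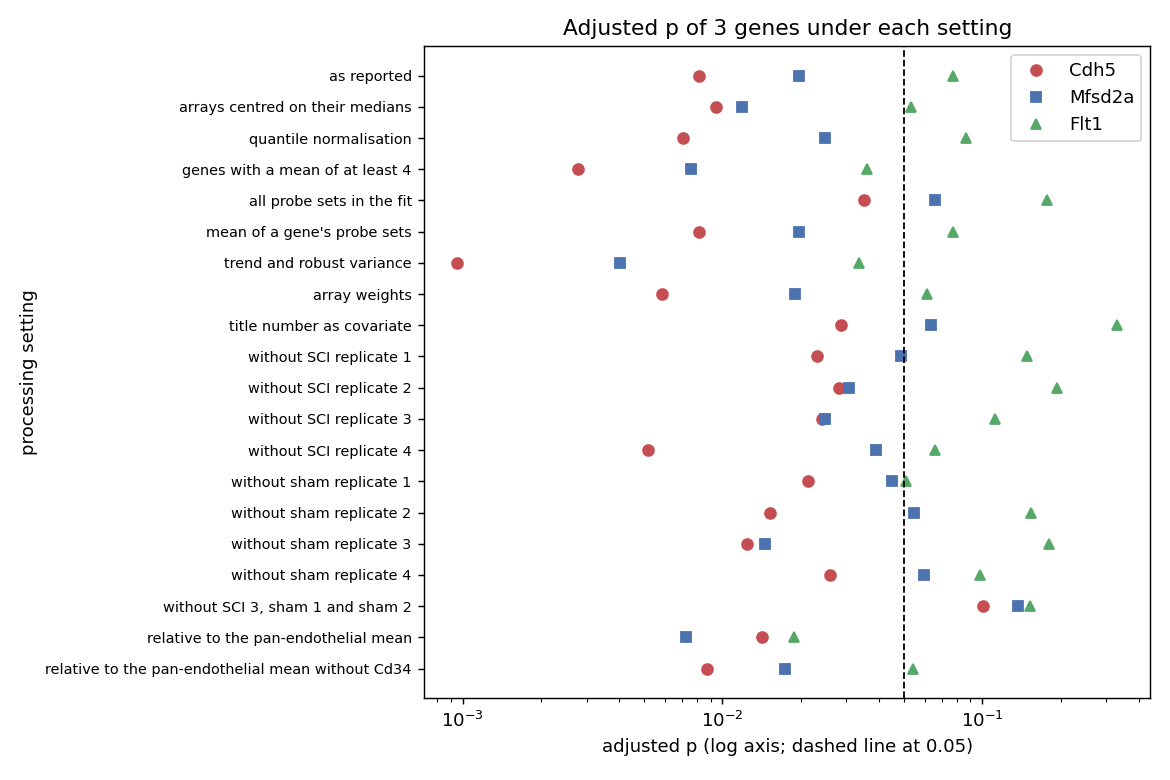
Adjusted p (horizontal log axis) of Cdh5, Mfsd2a and Flt1 as reported and under the 19 alternative settings (rows); the dashed line marks 0.05. Cdh5 lies left of the line in 18 of the 19 alternatives, Mfsd2a in 14 and Flt1 in 3.

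As to the series as a whole, the median signal of an array was 3.73 to 3.81, and no 2 arrays were identical. SCI and sham separated on the first principal component (45.6% of the variance). On the second (11.2%), SCI 3, sham 1 and sham 2 scored 17.2, 12.6 and 12.8. Sham 3 and sham 4 lay on the other side at -14.8 and -11.3, so this component also split the sham group. SCI 1, SCI 2 and SCI 4 scored -4.7, -4.5 and -7.4. Of 10 genes listed for the spinal cord, 9 (Mbp, Gfap, Rbfox3, Snap25, Slc6a5, Slc17a6 and Hox genes among them) were above the median of all genes on all 8 arrays. Chat was not. The median is a low bar, so this is only a weak check of the labelled tissue. Of these 10, Gfap was higher and 6 were lower, beside 7.1% and 7.06% of all genes.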

How the data were processed

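Total RNA of thoracic cord was hybridised to 1 array per sample. Per the submitters' processing notes, the authors made the deposited log2 values with Affymetrix Expression Console and RMA, which corrects background, normalises between arrays and summarises probes. Neither the tool versions nor the array's probe library are stated in those notes, and the genome build was not given in these sources. Of 36685 probe sets, 18511 had 1 symbol, 575 several and 17599 none here. Gene IDs matched 18394 of the 18511 to RefSeq (GRCr8), and 0 symbols changed. The brightest probe set of each gene was kept, which left 18166 genes. The test was limma's lmFit and eBayes (version 3.58.1, R 4.3.3; no covariate, 4 arrays against 4) and Benjamini-Hochberg adjustment over all genes at 0.05, after tests on simulated data. The number of arrays limits the precision.

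The members and the 16 lists were chosen with earlier results of these data known. The text names all members, the 3 genes of each list with the smallest p, and the 3 nearest genes to each called member. Genes outside this rule are said to be chosen after their values were seen, except uncalled or listed genes given as ranges or examples. In all, 19 alternative settings were tried. SCI 3, sham 1 and sham 2 were left out together because earlier results set them apart, and the reference without Cd34 was added after the data were seen. Replicates were numbered 1 to 4 in sample order.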

Additional observations from a re-analysis of the deposited data

Results flagged for a closer look

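Within groups of 4 arrays, 130 sets of values (the members and the named genes, in each group) were checked for an array whose gap to the nearest other exceeded Dixon's 95% critical value for the gap as a share of the group's range, which chance gives in about 5% of sets. None of the 8 members met this, and 6 sets of other genes did. Vegfa read 7.73 in sham 3, against 6.55 to 6.73 in the other sham arrays. Notch1 read 5.19 in sham 3, against 5.56 to 5.59. Slc16a1 read 7.48 in sham 2, against 7.73 to 7.78. Fbln1 read 7.32 in SCI 2, against 6.58 to 6.68 in the other SCI arrays, and 5.97 in sham 3, against 5.79 to 5.81. Itga2b, the platelet integrin chain, read 3.89 in SCI 3, against 3.66 to 3.69.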

How the results depend on the processing

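No paired analysis was possible because the labels give the groups no shared replicate numbers. The members called were 1 higher and 1 lower. The lower count was 2 with genes of a mean below 4 left out, with trended and robust variance and relative to the pan-endothelial mean, 0 with all probe sets in the fit and with the title number as covariate, and 0 to 1 with each array left out in turn (0 without sham 2 and without sham 4). Without SCI 3, sham 1 and sham 2 it was 0 higher and 0 lower. Against the pan-endothelial genes 1 member was higher and 2 lower; the lower count was 1 with the reference without Cd34, the counts were 0 to 1 higher and 1 to 2 lower with each array left out, and 0 and 0 without the 3 arrays. Plvap changed sign in 4 settings, at 0.04 without SCI 3, 0.01 without sham 1, 0.03 without sham 3 (lowest and highest over single arrays left out -0.051 and 0.044) and 0.037 without the 3 arrays. Over all genes, 1290 were called higher and 1282 lower. With all probe sets in the fit these counts were 802 and 639, with the covariate 813 and 543, without the 3 arrays 563 and 284, relative to the pan-endothelial mean 800 and 2213, and with each array left out 923 to 1257 and 780 to 1283. The fits without arrays had fewer samples. The title number partly followed the groups, and the fit with all probe sets adjusted over 36685 probe sets instead of 18166 genes. The cause of the shifts in fits of all 8 arrays was not tested. Among the named genes that are not members, 915 values under alternatives kept direction and call, 153 lost the call and 10 gained it. With 4 arrays a group, limma's 95% intervals of the 6 uncalled members reached from -0.69 to 0.54.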

Other observations

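Lists of other vessel-like and blood-borne cells were read beside the members and beside all genes, of which 7.1% were called higher and 7.06% lower. Of 6 lymphatic endothelium genes, 2 were higher and 0 lower. These were podoplanin, Pdpn, which astrocytes and fibroblasts also make (1.55, SE 0.12, adjusted p = 2.7e-05), and Reln (0.39, adjusted p = 0.0287, lost without SCI 1, SCI 2, SCI 4, sham 1 or sham 2), while the lymphatic transcription factor Prox1 had -0.39 (adjusted p = 0.158, and 0.0451 without sham 1). Of 6 ependymal and choroid plexus genes, whose choroid vessels are a textbook site of Plvap, 1 was higher, Rarres2 (0.66, adjusted p = 0.0424, called without sham 4 or SCI 4 and not without any other 1 array), and Cfap126 and Tmem212 had 0.30 and 0.15 without passing. Of 7 blood cell genes, 1 was higher, the chemokine Pf4 (1.40, SE 0.25, adjusted p = 0.0048). The platelet genes Ppbp (0.22, adjusted p = 0.360) and Gp9 (0.27, adjusted p = 0.569) did not pass. The haemoglobin gene Hbb-b1, a sign of red cells, had -0.56 (SE 0.34, adjusted p = 0.345), and Itga2b had 0.18.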
